A study of Homo sapiens with 5 samples.

Results

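In HCT116 cells, a human colorectal cancer line, 4885 of the 31839 H3K27ac summits listed after ENO1-IT1 siRNA stood more than 2000 bp from every H3K27ac summit of the control siRNA list and more than 500 bp from every KAT7 summit listed after ENO1-IT1 siRNA. They are called knockdown-only sites without KAT7 here, and they made up 15.3% of that list (exact 95% interval 14.9 to 15.7%) and 81.2% of its 6016 knockdown-only summits. The members were chosen by the listed positions themselves, at all scores, so their absence from the control list and their distance from KAT7 are descriptions and not findings. Over the whole knockdown H3K27ac list, 18.9% of summits lacked a control H3K27ac summit within 2000 bp and 85.7% lacked a knockdown KAT7 summit within 500 bp.

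The libraries came from HCT116 cells transfected for 48 h with ENO1-IT1 siRNA or with control siRNA, and chromatin was precipitated with an antibody to H3K27ac or to KAT7. An input library without antibody was also listed, and its label names no siRNA. Each group held 1 library and was identified by its sample title, so the spread between replicates is unknown and differences between siRNAs were not tested. Peak names open with KO in the lists of both siRNAs and do not settle which is the control, so every direction here rests on the titles and would turn if they had been exchanged. ENO1-IT1 is a long noncoding RNA named after an intron of the enolase gene ENO1. How far it was depleted was not measured in these lists.

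Acetylation of lysine 27 on histone H3 marks active promoters and enhancers, and is written mainly by the acetyltransferases CBP and EP300. KAT7, also called HBO1, belongs to the MYST family and works in complexes with BRPF or JADE scaffold proteins that direct it to other lysines of histones H3 and H4. A broad acetylated stretch is usually reported by a peak caller as several neighbouring summits, or as a single peak whose summit is its highest point. Separate lists can therefore mark the same stretch at different positions.

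Knockdown-only sites without KAT7 were mostly weak calls. Each summit carries a score, a -log10 p or q from MACS2, which ranks summits within 1 list only and is the authors' value. The median score was 4.13 (quartiles 3.10 and 5.42, range 1.38 to 101). Sites listed in both conditions without KAT7, the 22413 knockdown H3K27ac summits with a control H3K27ac summit within 2000 bp and no knockdown KAT7 summit within 500 bp, had a median score of 9.27 (quartiles 5.21 and 17.5). The 1131 knockdown-only sites that did have KAT7 lay between them, with a median of 5.42 and a highest score of 25.9. A score of at least 10 was reached by 165 members (3.38%), against 46.5% of the sites listed in both conditions. Only 38 members scored at least 20 and 11 at least 50.

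**Figure D1:**
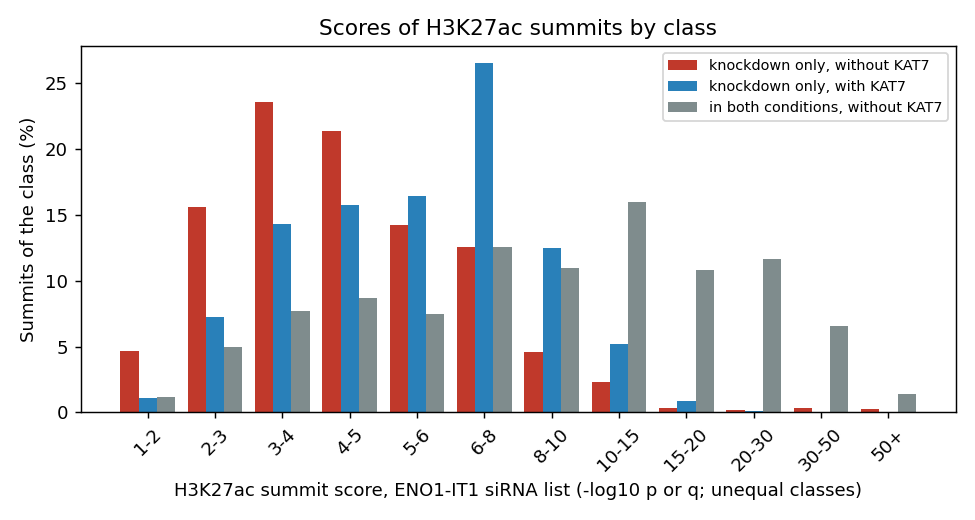
Scores of H3K27ac summits after ENO1-IT1 siRNA, as the percentage of each class (y axis) in unequal classes of score (x axis, -log10 p or q), for 4885 knockdown-only sites without KAT7, 1131 knockdown-only sites with KAT7 and 22413 sites listed in both conditions without KAT7. Of the members 3.38% score at least 10, against 46.5% of the sites listed in both conditions.

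The share of the knockdown H3K27ac list that was knockdown-only without KAT7 was lower in higher classes of score. Members made up 39.1% (37.2 to 41.1%) of the 2530 summits scoring under 3 and 34.0% (32.8 to 35.2%) of those scoring 3 to 5. The share was 15.2% (14.5 to 15.9%) for scores of 5 to 10, 1.75% (1.46 to 2.08%) for 10 to 20 and 0.690% (0.489 to 0.946%) for the 5507 summits scoring 20 and above. A member was thus rare among strongly listed acetylated sites and frequent among weak ones. The score and the listing that the rule used come from the same library, so this trend is a description and was not tested.

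The opposite set was smaller. In the control H3K27ac list, 1561 of 29429 summits had neither a knockdown H3K27ac summit within 2000 bp nor a control KAT7 summit within 500 bp, which was 5.30% of that list (5.05 to 5.57%). Regardless of KAT7, 6.54% of control H3K27ac summits had no knockdown summit within 2000 bp. There were 3.13 members for each of these control-only sites. At scores of at least 10 the numbers were 165 members and 182 control-only sites, and at scores of at least 20 they were 38 and 95, so the surplus after ENO1-IT1 siRNA lay among weak calls. The scores of the lists are not on a common scale, the depth of each library is unknown, and the part that depth plays in the surplus was not tested.

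The distance from acetylated chromatin of the control varied widely among members. The median distance to the nearest control H3K27ac summit was 16310 bp. Of the members, 24.2% (22.98 to 25.4%) lay 2 to 5 kb away, 14.5% lay 5 to 10 kb away and 36.1% lay 10 to 50 kb away. A further 25.2% (23.9 to 26.4%) lay beyond 50 kb, and 67 members lay beyond 500 kb. The median score hardly differed over these ranges, at 4.10 for the nearest, 4.13 from 5 to 50 kb, 4.21 from 50 to 100 kb and 4.40 beyond 100 kb. The high scores did differ. All 38 members scoring at least 20 lay within 10 kb of a control summit, 33 of them within 5 kb, whereas the highest score beyond 10 kb was 18.0.

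The strongest members stood beside strong control H3K27ac summits that were themselves listed in the control only. All 11 members scoring at least 50 had, within 10 kb, a control H3K27ac summit that scored at least 20 and had no knockdown summit within 2000 bp (11 of 11, exact interval 71.5 to 100%). Such control-only summits numbered 99 in the whole control list. They stood within 10 kb of 57.9% (40.8 to 73.7%) of the 38 members scoring at least 20, of 3.94% (1.29 to 8.95%) of the 127 members scoring 10 to 20 and of 0.826% (0.588 to 1.13%) of the 4720 members scoring under 10. A control summit of that score, listed in both conditions or not, lay within 10 kb of 94.7% (82.3 to 99.4%) of the 38 and of 11.02% (10.1 to 11.9%) of the 4720. At the strong end, a strong control summit was thus mostly listed within 10 kb of the member. That it stood at another position is set by the rule. The like shares were not computed for other knockdown summits of similar score.

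**Figure D2:**
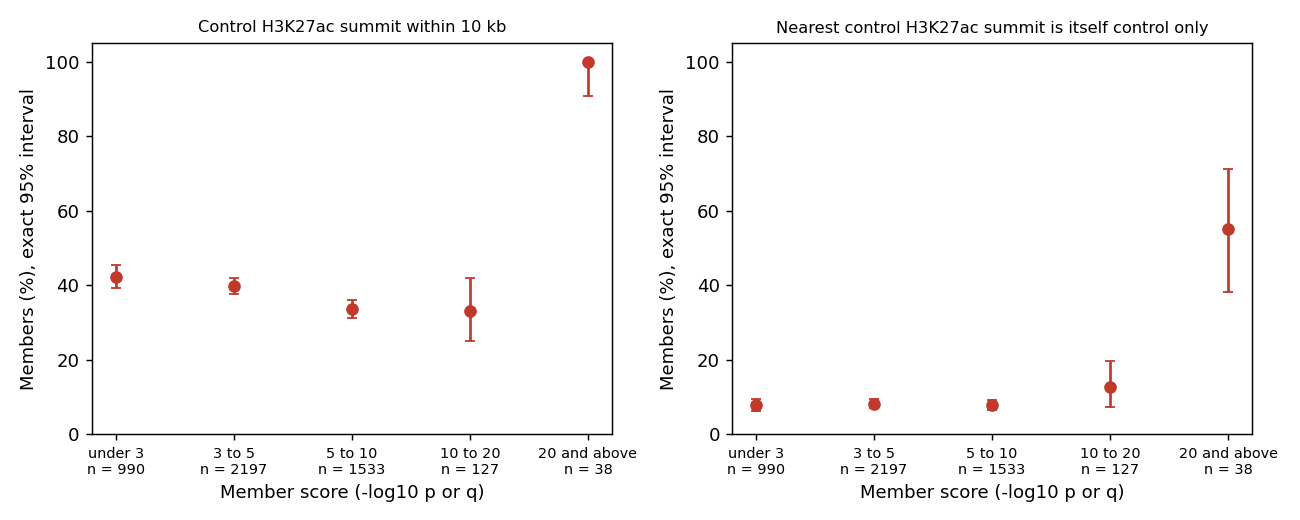
Percentage of members (y axis, exact 95% interval, counting error only) with a control H3K27ac summit within 10 kb (left) and with a nearest control H3K27ac summit that had no knockdown summit within 2000 bp (right), by member score (x axis). The class scoring 20 and above stands apart, at 100% (38 of 38) on the left and 55.3% on the right.

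The highest-scored member lay on chromosome 2 at 182648595 (hg19, as all positions here, counted from 1), with a score of 101. The nearest control H3K27ac summit, 6548 bp away at 182655143, scored 80.8 and had no knockdown summit closer than 4653 bp. No other knockdown H3K27ac summit lay within 8366 bp of the member. Each list thus held 1 strong summit in this stretch, 6548 bp apart.

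The member on chromosome 8 at 126668688 scored 101 as well. Its nearest control summit, 5945 bp away, was weak at 6.46, but a control summit scoring 72.0 lay 8526 bp away on the other side. On chromosome 18 the member at 3617832 scored 92.1, and a control-only summit 6905 bp away scored 58.4. This stretch also held a strong summit on the other side in each list, 12604 bp from the member with a score of 95.8 after ENO1-IT1 siRNA and 13618 bp from it with a score of 74.1 after control siRNA. On chromosome 3 the member at 111635777 scored 85.9 and lay between control summits scoring 21.1 and 76.6, at 5626 and 6931 bp. Both were beyond the 2000 bp of the rule, on either side.

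**Figure D3:**
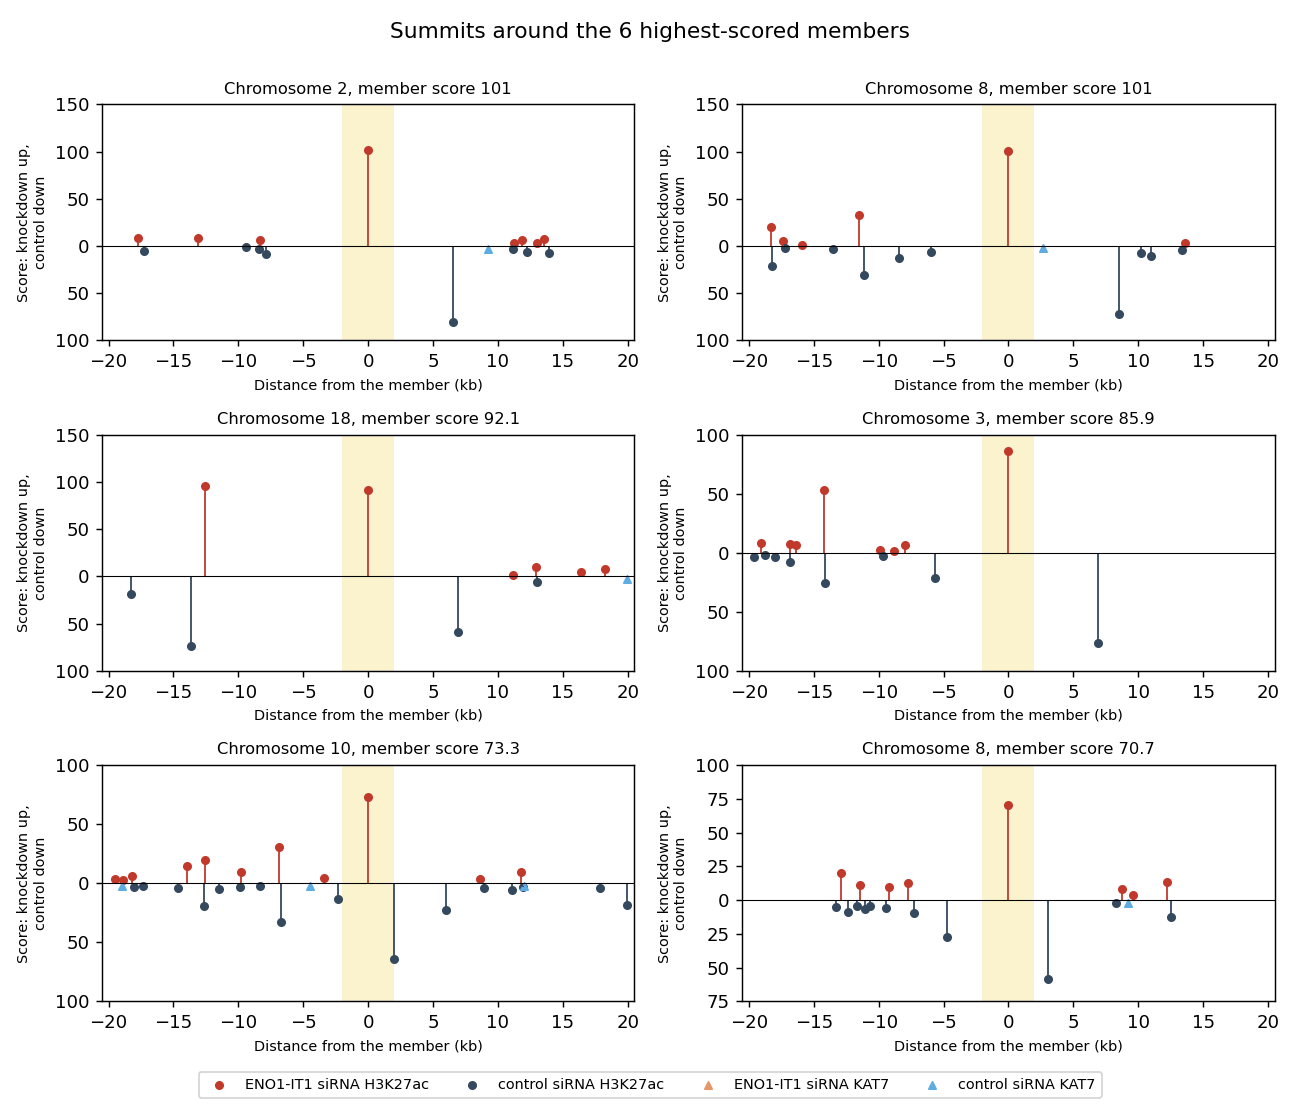
Summits of 4 lists within 20 kb of the 6 highest-scored members, with the distance from the member in kb (x axis) and the score (y axis, -log10 p or q; ENO1-IT1 siRNA upward, control siRNA downward, not on a common scale). The shaded band is the 2000 bp on either side that the rule kept free of control H3K27ac, and in each panel a control summit scoring 58.4 to 80.8 lies outside it within 10 kb.

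Among the 20 highest-scored members, scores ran from 41.1 to 101 and ranks in the knockdown list from 111 to 1068. Their distances to the nearest control summit were 2005 to 6905 bp. For 17 of the 20 that control summit was nearer than any other knockdown H3K27ac summit, against 32.5% of all members. In 15 of the 20 the nearest control summit was itself without a knockdown summit within 2000 bp, against 8.45% of all members. Among members scoring at least 20 these shares were 73.7% and 55.3%. They were not computed for other knockdown summits of similar score, so both contrasts describe score among members only. None of the 20 had a control KAT7 summit within 500 bp, but only 5.18% of all members had one, so 20 sites are too few to tell a difference.

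Several of the 20 can be placed by general knowledge of the hg19 map, which was not checked against an annotation. The members on chromosome 4 at 30949872 (score 70.5) and 31046745 (score 42.8) lie in the region of PCDH7, a protocadherin of the cell surface. Those on chromosome 17 at 57860880 (score 47.2) and 57907277 (score 49.99) lie in the region of VMP1, a membrane protein needed for autophagy, next to the microRNA gene MIR21. The member on chromosome 10 at 95228136 (score 56.1) lies in the region of MYOF, which encodes a protein of membrane repair. The member on chromosome 3 named above lies in the region of PHLDB2, which encodes a protein of the cell cortex. That on chromosome 8 at 128231701 (score 70.7) lies far upstream of the oncogene MYC, at a distance that was not computed. The positions were not assigned to exons, introns or promoters, and the gene lists intended for such an annotation were not analysed here.

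The PCDH7 region held 2 of these members. At 30949872 the nearest control summit stood 3681 bp away with a score of 57.7, and at 31046745 it stood 2080 bp away with a score of 17.7. Neither control summit had a knockdown summit within 2000 bp. On chromosome 17 the 2 members differed in this. The member at 57860880 had a control-only summit scoring 48.5 at 2762 bp, whereas the nearest control summit to 57907277 scored 4.02 and was listed again after ENO1-IT1 siRNA at 150 bp.

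Members far from control acetylation were mostly weak calls, as members were in general. Of the 639 beyond 100 kb, 23 scored at least 10, against 165 of all 4885 members (3.38%). The member scoring at least 10 that lay farthest from any control H3K27ac summit was found at 41925512 of chromosome 5 and scored 12.5, 1024996 bp from the nearest control summit and 1025211 bp from the nearest other knockdown one. It was followed by members on chromosome 1 at 219347351 (score 15.2, 499597 bp), chromosome 10 at 60679546 (score 15.1, 483942 bp), chromosome 5 at 89226412 (score 11.1, 479057 bp) and chromosome 20 at 8581634 (score 10.5, 451208 bp). Each of these 5 stood alone, since the next summit of their own list was at least 135601 bp away. None had a control KAT7 summit within 500 bp, which only 5.18% of all members had.

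KAT7 in the control, which the rule did not use, was listed at few members. The control KAT7 list was long and mostly weak, with 122439 summits (median score 2.68) against 24611 after ENO1-IT1 siRNA. The share of sites that so long a list would reach by placement alone was not tested. Of the 4885, 253 (5.18%, 4.57 to 5.84%) had a control KAT7 summit within 500 bp. The share was 5.79% (5.49 to 6.11%) of the sites listed in both conditions without KAT7 and 14.9% of the whole knockdown H3K27ac list. The difference of -0.61 percentage points between members and sites listed in both conditions had an interval of -1.29 to 0.11 points, counting error only. Averaged over 5 equal classes of score the shares were 5.71% and 5.62%, with only 41 members in the highest class. At the main setting the counting interval thus held 0, and members and sites listed in both conditions without KAT7 both lack knockdown KAT7 by rule. Summits of 1 library are not replicates, so the difference was not tested. With merged summits its interval lay below 0 (-0.82 points, -1.55 to -0.04). With a control H3K27ac distance of 1000 bp the interval of the difference lay below 0 (-0.84 points, -1.45 to -0.19), and with control KAT7 summits scoring at least 3 only 1.39% of members had one (difference 0.04 points). The knockdown-only sites with KAT7 had control KAT7 far more often, at 56.7% (53.7 to 59.6%). So did the sites listed in both conditions with knockdown KAT7, at 74.7% (73.2 to 76.2%).

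The control KAT7 summits beside members were mostly weak and not centred on them. Their median score was 2.68, the same as over the whole control KAT7 list, and 26.5% (21.2 to 32.4%) scored at least 3, against 28.3% of that list. Their median distance from the member was 201 bp, close to the 212.5 bp (median) at sites listed in both conditions without KAT7, whereas it was 10 bp at knockdown-only sites with KAT7. Within 100 bp, 69 members (1.41%, 1.10 to 1.78%) had a control KAT7 summit, against 1.33% (1.19 to 1.49%) of the sites listed in both conditions.

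**Figure D4:**
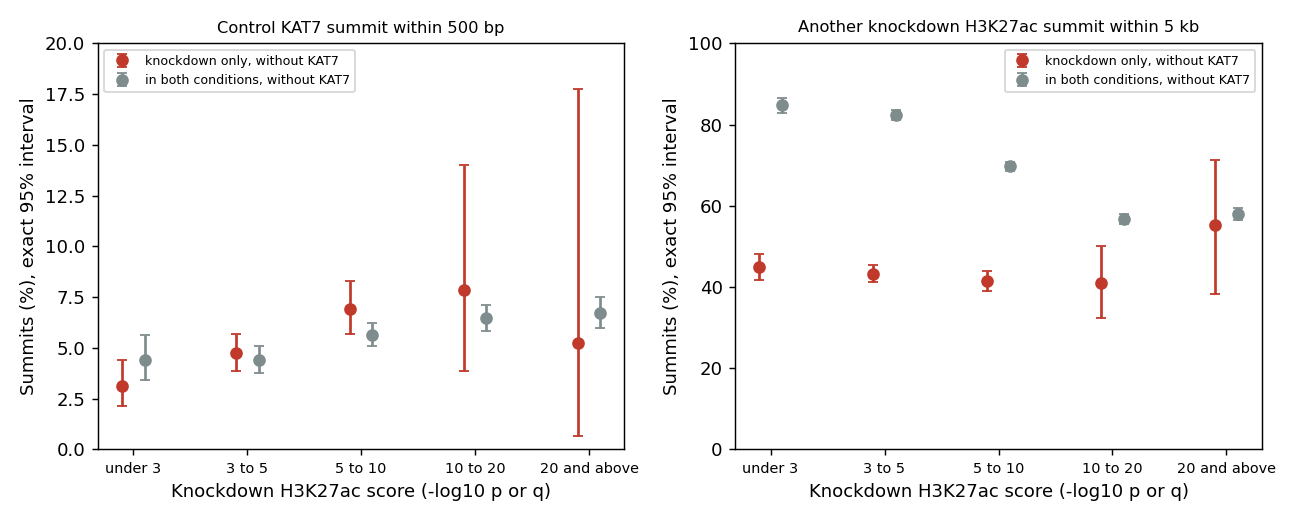
Percentage of summits (y axis, exact 95% interval) with a control KAT7 summit within 500 bp (left) and with another knockdown H3K27ac summit within 5 kb (right), by knockdown H3K27ac score (x axis), for members and for sites listed in both conditions without KAT7. The classes lie close together on the left (5.18% and 5.79% over all scores), and members lie lower on the right (43.1% and 66.9% over all scores) except at 20 and above, where the intervals overlap.

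The member with control KAT7 that had the highest score was found at 27209461 of chromosome 7, with an H3K27ac score of 37.7 and a control KAT7 summit of score 2.68 at 27 bp. General knowledge of the hg19 map places it in the HOXA cluster of developmental transcription factors, again without an annotation. Its nearest control H3K27ac summit, 2848 bp away, scored 37.3 and was control-only. The next were on chromosome 7 at 22894239 (score 36.4, KAT7 at 35 bp), chromosome 2 at 1754429 (score 15.2, 13 bp), chromosome 1 at 232861046 (score 14.5, 87 bp) and chromosome 12 at 125473336 (score 13.9, 330 bp). The KAT7 scores at these 5 sites were 2.43 or 2.68.

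Knockdown KAT7 just beyond the rule's distance was listed at few members, which the rule sets in part. It removed summits with knockdown KAT7 within 500 bp, and the sites listed in both conditions without KAT7 lack them too. A knockdown KAT7 summit lay within 2000 bp of 117 members (2.40%, 1.98 to 2.86%), against 5.34% (5.05 to 5.64%) of the sites listed in both conditions without KAT7. Within 10000 bp the shares were 18.4% (17.3 to 19.5%) and 19.0% (18.5 to 19.6%), which overlap within counting error. In the whole knockdown H3K27ac list, which includes summits with KAT7, the shares were 18.4% within 2000 bp and 30.5% within 10000 bp.

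Members, as chosen by the rule, stood alone more often than sites listed in both conditions. Another knockdown H3K27ac summit lay within 5000 bp of 43.1% of members (41.7 to 44.5%), against 66.9% (66.3 to 67.5%) of sites listed in both conditions without KAT7 and 57% of the whole list. The gap was widest among weak summits, with 44.9% of members and 84.8% of the others for scores under 3. For scores of 20 and above the shares were 55.3% (38.3 to 71.4%) and 57.9% (56.4 to 59.3%). Knockdown-only sites with KAT7 stood alone more often still, with 9.73% (8.06 to 11.6%) near another summit. The members' share depended on the rule, and was 27.3% when members had to lie over 5000 bp from control H3K27ac. The comparison is bound to the rule as well. Sites listed in both conditions have a control H3K27ac summit within 2000 bp by definition, and members have none. How much of the gap follows from this choice was not tested.

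No control H3K27ac summit lay within 20 kb of 45.5% (44.1 to 46.9%) of members, against 73.4% (70.7 to 75.9%) of knockdown-only sites with KAT7. At the other end, 13.4% of members and 2.92% of the sites with KAT7 had at least 5 control summits within 20 kb. Knockdown-only sites thus differed by KAT7 in their surroundings, those without KAT7 lying more often among control acetylated sites. A difference by KAT7 was not particular to knockdown-only sites. Among sites listed in both conditions, another knockdown H3K27ac summit lay within 5000 bp of 27.6% of those with knockdown KAT7 and 66.9% of those without. Across the 2504 windows of 1 Mb with a member or a control H3K27ac summit, the number of members and the number of control H3K27ac summits had a Spearman rho of 0.64. This describes single libraries over windows that share mappability and gene content. Of the windows, 45 held members and no control H3K27ac summit, with 60 members in all.

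Of the members, 1504 (30.8%) had another member within 10 kb. Grouping was not computed for an equal number of other knockdown summits, so these counts do not tell whether members cluster. When members at most 10 kb apart were joined, 4885 members formed 4051 groups, of which 3381 held a single member and 125 held 3 or more, these with 414 members in all. The largest groups held 6 members. One spanned 18231 bp on chromosome 12 from 109217818 to 109236049, with scores of 2.88 to 8.20. The other spanned 10933 bp on chromosome 3 from 46975026 to 46985959, with scores of 2.18 to 6.49 and no control H3K27ac summit within 20 kb of any of its members.

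In fixed windows of 100 kb, 2431 of 3418 windows with a member (71.1%) held only 1. Like counts for an equal number of other knockdown summits were not computed. Windows with 8 members lay on chromosome 11 at 34600001 to 34700000 and chromosome 17 at 48200001 to 48300000, and 6 windows held 7. The chromosome 11 window held 15 knockdown and 10 control H3K27ac summits, and that on chromosome 17 held 12 and 7. The window on chromosome 1 at 172800001 to 172900000 held 7 members among 30 knockdown and 27 control summits, a densely acetylated stretch in both conditions. In all 8 windows control H3K27ac summits were listed, from 7 to 27 of them.

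Members were spread nearly evenly over the chromosomes. Their share of the knockdown H3K27ac summits ran from 10.3% (7.89 to 13.1%) on chromosome 13 to 18.3% (15.8 to 21.0%) on chromosome 15. On 21 of 23 chromosomes (1 to 22 and X) the exact interval held the share of the whole list, 15.3%. The exceptions were chromosome 13, with 58 members among 565 summits, and chromosome 15, with 165 among 902. Summits of 1 library are not replicates, and no test was made.

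**Figure D5:**
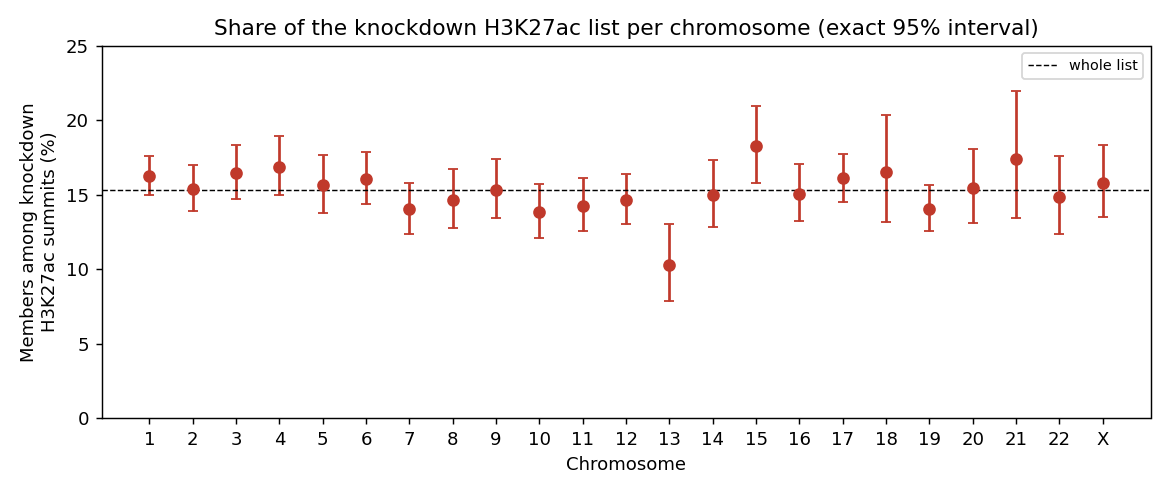
Members as a percentage of the knockdown H3K27ac summits of each chromosome (y axis) for chromosomes 1 to 22 and X (x axis), with exact 95% intervals and the share of the whole list (15.3%) as a dashed line. The intervals of 21 chromosomes cross the line, and chromosomes 13 (10.3%) and 15 (18.3%) do not.

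Input DNA had a summit within 1000 bp of 2 members, a share of 0.0409% (0.00496 to 0.148%), against 20 sites listed in both conditions without KAT7 (0.0892%) and 0.135% of the whole list. The input list held only 945 summits, so few could coincide.

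The distance limits of the rule passed through a continuum. The 5 members just outside 2000 bp lay at most 2005 bp from a control summit, with scores of 12.5, 3.37, 3.42, 41.2 and 3.10, while the 5 summits just inside it lay 1996 to 2000 bp away with scores of 1.66 to 5.76. One of the 20 highest-scored members, on chromosome 12 at 53440576, was among those just outside. At the KAT7 limit the 5 nearest members lay 503 to 548 bp from a knockdown KAT7 summit, with scores of 2.18 to 7.57, and the 5 knockdown-only sites just inside it lay 456 to 490 bp away, with scores of 3.05 to 7.502.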

How the data were processed

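ChIP-seq of H3K27ac and KAT7 was listed for HCT116 cells after ENO1-IT1 siRNA and control siRNA, with input DNA, as 5 lists of summits, 1 library per group. Per the submitters' processing notes, Bowtie (hg19) and MACS2 were used. Their versions and options, and whether input served as the control for calling, are not stated there. The peak names in the deposited lists carry a tag for duplicate removal, and lists were called per sample. The deposited score is the authors' -log10 of p or of q, which of them being unknown. So is depth, since no list holds read counts.

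Position was bed column 3. Distances between summits were computed in Python 3.11.15 with SciPy 1.17.1, pandas 2.3.3 and numpy 2.4.6, and plotted with matplotlib 3.10.9. Only the distance to control H3K27ac was checked, on a simulated list. Its planted members were picked with the same distance function, and a part of the distances was recomputed separately. Shares carry exact Clopper-Pearson 95% intervals, for counting error only; that of a difference of shares combines the intervals of both. The members and lists were chosen with earlier results of these data known. Regions named were the 20 highest-scored members, the 5 scoring at least 10 and farthest from control H3K27ac, the 5 highest with control KAT7, the densest 100 kb windows (8, because of ties) and the 5 on either side of each distance limit. The strong control summits nearby, the joined groups, the 1 Mb windows and the loci placed by general knowledge were chosen after seeing the data. No hg19 genome or annotation was used, so sequences, promoters and gene lists were not analysed here. Alternatives were other distances, a score minimum, merged summits, lists of equal length, and omission of chromosome Y or of summits near input.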

Additional observations from a re-analysis of the deposited data

How the results depend on the processing

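No paired analysis was possible because each group holds 1 library. The number of members stayed within 1.5 times 4885 under every alternative (3704 to 6540) except a knockdown H3K27ac score of at least 10, which left 165 by construction. That minimum also gave a median score of 12.5, control KAT7 at 7.27% of members and a difference from sites listed in both conditions of 0.70 points (-2.79 to 5.81). With H3K27ac lists of equal length the median score was 4.50. The share of members within 5000 bp of another knockdown H3K27ac summit was 55.9% with a control distance of 1000 bp, 27.3% with 5000 bp, 38.9% with lists of equal length and 29.8% with merged summits, so this share depends on the setting. With control KAT7 summits scoring at least 3, an alternative chosen after seeing the data, control KAT7 was near 1.39% of members. The interval of the difference in control KAT7 lay below 0 with a control distance of 1000 bp (-0.84 points, -1.45 to -0.19) and with merged summits (-0.82 points, -1.55 to -0.04). Removing summits near input, chromosome Y or weak knockdown KAT7 calls moved no median, share or difference beyond its counting interval. The number of members, which has no such interval, was 4883, 4875 and 4916. The setting without weak knockdown KAT7 calls was also chosen after seeing the data. Unknown depth limits every comparison of list lengths.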
